A study of Mus musculus with 18 samples.

Results

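The metallothioneins Mt1 and Mt2, their metal-sensing transcription factor Mtf1, and the zinc transporters Slc30a1 and Slc39a14 were followed in the left ventricle of the mouse heart through voluntary running, pregnancy and the hours after birth. These 5 genes, of 18193 genes measured, were chosen by their values on these same arrays, array by array across the groups, because the late-pregnancy arrays differed from each other in the metallothioneins. Their levels and differences are therefore a description with no p-value. The study profiled ventricular RNA on Affymetrix mouse expression arrays to set the heart of pregnancy beside the heart of exercise.

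All animals were female C57Bl/6 mice 3 to 4 months old. No transgene or drug treatment was stated for any group, and all mice inhaled isoflurane before they were killed. The sedentary non-pregnant group (NP/Sed, the virgin control sampled at diestrus) served both designs. Voluntary wheel running lasted 7 days (7EX) or 21 days (21EX). Pregnant mice were taken at mid-pregnancy on day 11 (MP) or at late pregnancy on days 18 to 19 (LP), and the immediate postpartum group (0PP) was taken within 12 hours of birth. Each group had 3 arrays, 18 in all, and on every array the RNA of 2 to 3 hearts had been mixed in equal parts. Variation between single mice within a pool cannot be seen, and p-values below measure the spread between pools. The 5 comparisons with NP/Sed share the same control arrays, so their values are given side by side and are not independent of each other.

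Metallothioneins are small cysteine-rich proteins that bind zinc, copper and cadmium and can scavenge reactive oxygen species. When free zinc rises, the zinc finger protein encoded by Mtf1 binds metal response elements and drives the metallothionein genes and Slc30a1, whose product exports zinc across the plasma membrane. The metallothionein genes are also known to answer glucocorticoids and interleukin-6, and Slc39a14, which imports zinc, iron and manganese, is itself an acute phase gene in the liver.

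Mt2 and Mt1 are neighbours on chromosome 8 (GRCm38.p6, RefSeq), at chr8:94172618-94173567 and chr8:94178883-94180327, with 5315 bases between them. Slc30a1 is at chr1:191906697-191913248, Mtf1 at chr4:124802549-124849800 and Slc39a14 at chr14:70303467-70351452. The RefSeq promoter table held 4 of the 5 members, all but Slc39a14. The 250 bases before the annotated start are shown for Mt2, Mt1 and Slc30a1, the members that the zinc-sensing factor is known to drive, all on the plus strand. Capitals mark each match to the core of the metal response element, TGCACNC or TGCGCNC, searched on both strands, and no match overlapped another. The windows are chr8:94172368-94172617 for Mt2, chr8:94178839-94179088 for Mt1 and chr1:191906531-191906780 for Slc30a1.
Mt2: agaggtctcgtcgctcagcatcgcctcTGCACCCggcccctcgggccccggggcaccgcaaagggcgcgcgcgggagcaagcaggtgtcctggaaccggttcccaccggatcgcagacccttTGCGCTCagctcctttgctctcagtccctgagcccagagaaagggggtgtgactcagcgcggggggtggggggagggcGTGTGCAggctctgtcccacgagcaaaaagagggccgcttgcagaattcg
Mt1: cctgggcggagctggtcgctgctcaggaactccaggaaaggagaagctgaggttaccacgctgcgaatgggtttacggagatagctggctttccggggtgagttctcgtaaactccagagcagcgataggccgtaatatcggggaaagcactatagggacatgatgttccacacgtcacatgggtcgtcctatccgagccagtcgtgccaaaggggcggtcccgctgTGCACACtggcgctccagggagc
Slc30a1: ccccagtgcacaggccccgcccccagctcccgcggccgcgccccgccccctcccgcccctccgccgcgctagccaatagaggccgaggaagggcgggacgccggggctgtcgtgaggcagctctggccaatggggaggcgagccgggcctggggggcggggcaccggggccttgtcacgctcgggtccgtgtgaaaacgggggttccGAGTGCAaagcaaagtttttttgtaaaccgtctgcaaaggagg
The Mt2 window held 3 matches, whose last bases lay 217, 122 and 44 bases before the start. The Mt1 window held 1 match, ending 17 bases before the start, and the Slc30a1 window held 1, ending 37 bases before it. The Mtf1 window held 0. Of 32851 RefSeq windows of this length, 21.4% held at least 1 match and 1.26% held at least 3. Counted over the whole 300 bases of the table, with 50 bases after the start, there were 4 matches for Mt2, 3 for Mt1 and 2 for Slc30a1, and 1.97% of all windows held 3 or more. The start used in the table for Mt1 and for Slc30a1 lies inside the span of the gene, so elements nearer to another start may be cut off. The core of the antioxidant response element, TGACNNNGC, was found once each in the Mt2 and Slc30a1 windows on either strand and in 10.2% of all windows. A match is a run of letters and not a measured binding site.

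The arrays were alike in scale, with medians of 4.93 to 5.02 log2 units, and the 8 cardiomyocyte markers (Myh6, Tnnt2 and others) averaged 14.13 to 14.21 log2 units on every array, the atrial markers (Myl7, Nppa and others) 7.52 to 9.13 and the liver markers 4.47 to 4.65. These marker averages use the brightest probe set of each gene. The third late-pregnancy array (LP-3) stood apart. On it 69 genes lay at least 1 log2 unit above the mean of the other LP arrays, against 0 to 25 genes for the same measure on the other 17 arrays.

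Mt2 was higher in all 3 pregnancy and postpartum groups than in sedentary hearts, and in both running groups its arrays overlapped with the sedentary ones. Its probe set (1428942_at) read 9.61, 9.50 and 9.14 log2 units on the NP/Sed arrays, 9.61, 9.32 and 9.54 on the 7EX arrays and 9.43, 9.33 and 9.62 on the 21EX arrays. In pregnancy it read 10.20, 10.27 and 10.17 at MP and 10.75, 10.58 and 12.84 at LP. At 0PP it read 10.29, 10.73 and 10.67. The 9 sedentary and exercise arrays spanned 9.14 to 9.62, and the 9 pregnancy and postpartum arrays began above them at 10.17, with no overlap. The SD was 0.05 log2 units over the MP arrays and 1.26 over the LP arrays, where LP-3 lay 2.17 above the mean of the other LP arrays.

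Against the NP/Sed mean, Mt2 differed by 0.79 ± 0.36 log2 units at MP (SE, n = 3 arrays a group), by 1.97 ± 0.36 at LP and by 1.14 ± 0.36 at 0PP. These correspond to 1.73-fold, 3.92-fold and 2.21-fold on the linear scale. At 7EX and 21EX the differences were 0.07 and 0.04, both under their SE of 0.36. Without LP-3 the LP difference was 1.25 ± 0.14, or 2.37-fold, and the median of the LP arrays against the median of the NP/Sed arrays gave 1.25. On LP-3 alone Mt2 stood 10.7-fold above the NP/Sed mean, whereas LP-1 and LP-2 stood 2.52-fold and 2.23-fold above it. The standard error of every Mt2 difference with NP/Sed, other than that at LP, fell from 0.36 to 0.13 once LP-3 was left out, since 1 estimate of spread serves all groups.

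On its brighter probe set Mt1, too, was higher at MP, 0PP and LP than in sedentary hearts, over a smaller log2 range. This probe set (1422557_s_at) read 12.21, 12.03 and 11.93 in NP/Sed, 11.93, 11.94 and 11.90 at 7EX and 11.88, 11.88 and 12.05 at 21EX. It read 12.43, 12.39 and 12.45 at MP, 12.67, 12.62 and 13.69 at LP and 12.33, 12.58 and 12.56 at 0PP. As with Mt2, the sedentary and exercise arrays (11.88 to 12.21) and the pregnancy and postpartum arrays (12.33 to 13.69) did not overlap, and LP-3 was the highest array. The differences from NP/Sed were 0.37 ± 0.18 log2 units at MP, 0.94 ± 0.18 at LP and 0.44 ± 0.18 at 0PP, against -0.13 at 7EX and -0.12 at 21EX. Without LP-3 the LP difference was 0.59 ± 0.10, that is 1.51-fold in place of 1.92-fold. The suffix of this probe set marks probes shared by more than 1 transcript, so its signal may not come from Mt1 alone.

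**Figure D1:**
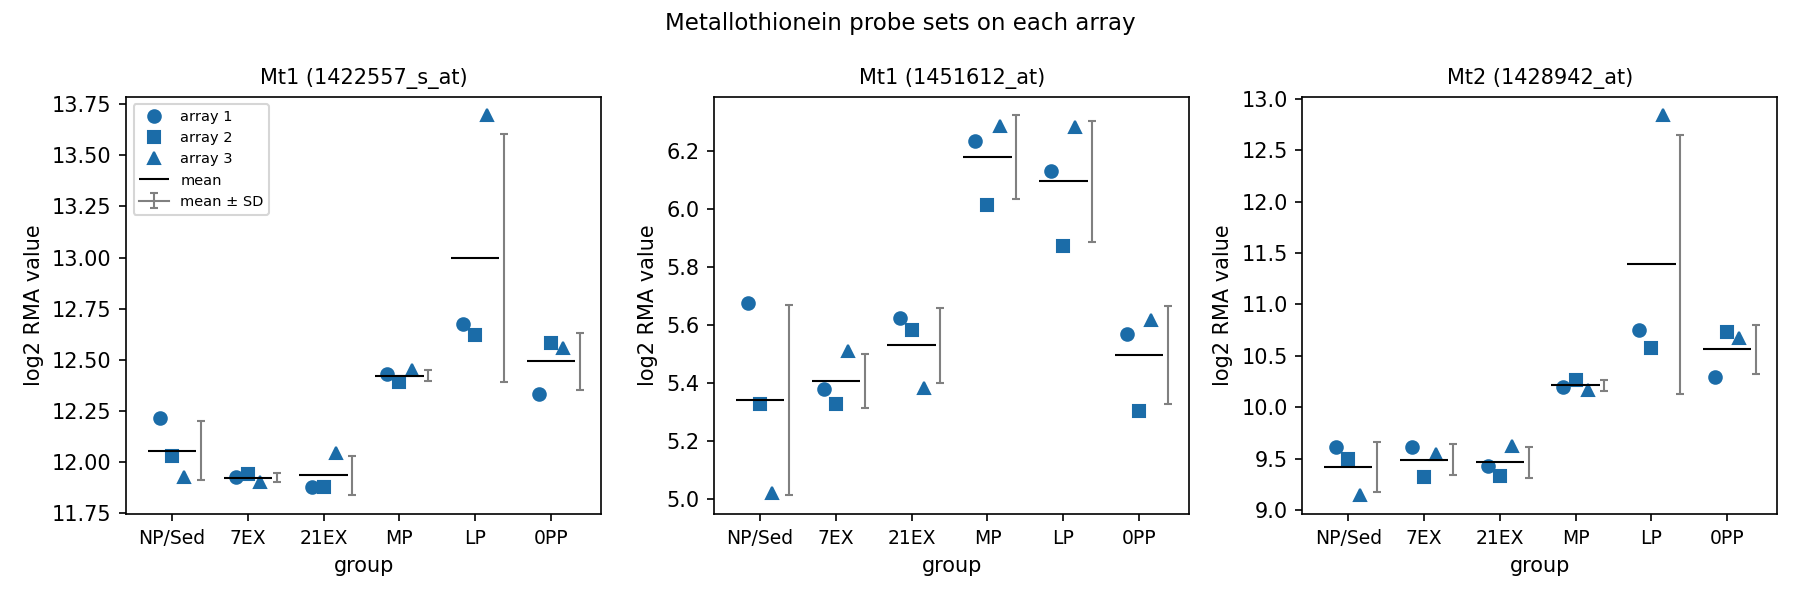
Log2 RMA value (vertical axis) of the Mt1 probe sets and the Mt2 probe set on each of 3 arrays in the 6 groups (horizontal axis), with the group mean as a bar and the SD beside it. Mt2 lies at 9.14 to 9.62 on the sedentary and exercise arrays and at 10.17 or more in pregnancy and after birth, and the third LP array is the highest in both Mt2 and the brighter Mt1 probe set.

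The dimmer Mt1 probe set (1451612_at) showed another course. It read 5.68, 5.33 and 5.02 in NP/Sed, 6.23, 6.02 and 6.29 at MP, 6.13, 5.87 and 6.28 at LP and 5.57, 5.30 and 5.62 at 0PP. Here the MP and LP arrays lay above all others, but the 0PP arrays were back within the NP/Sed range. The differences from NP/Sed were 0.84 ± 0.14 at MP, 0.75 ± 0.14 at LP and 0.16 ± 0.14 at 0PP. LP-3 did not stand out on this probe set, at 6.28 against 6.13 on LP-1. The 2 Mt1 probe sets thus disagree on the postpartum level, and the reason was not tested.

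In the order of group means, Mt2 ran from NP/Sed (9.42) through 21EX (9.46) and 7EX (9.49) to MP (10.21), 0PP (10.56) and LP (11.39). Between neighbours in this order, the arrays of 7EX and MP and those of MP and 0PP did not overlap, while NP/Sed, 21EX and 7EX overlapped, as did 0PP and LP. For the brighter Mt1 probe set the order was 7EX (11.92), 21EX (11.93), NP/Sed (12.06), MP (12.42), 0PP (12.49) and LP (13.00). There the steps from NP/Sed to MP and from 0PP to LP were free of overlap.

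After birth, Mt2 at 0PP was 0.83 ± 0.36 log2 units below LP. Without LP-3 this difference was -0.10 ± 0.14. For Mt1 the corresponding differences were -0.51 ± 0.18 and -0.16 ± 0.10. For Mt2 the lower mean at 0PP thus rested mostly on LP-3, because LP-1 and LP-2 read 10.75 and 10.58 and the 0PP arrays reached 10.73. For Mt1 it did not rest on LP-3 alone. On the brighter probe set LP-1 and LP-2 (12.67 and 12.62) also lay above every 0PP array, and on the dimmer probe set the difference was -0.60 ± 0.14, without overlap, and -0.51 ± 0.15 without LP-3.

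**Figure D2:**
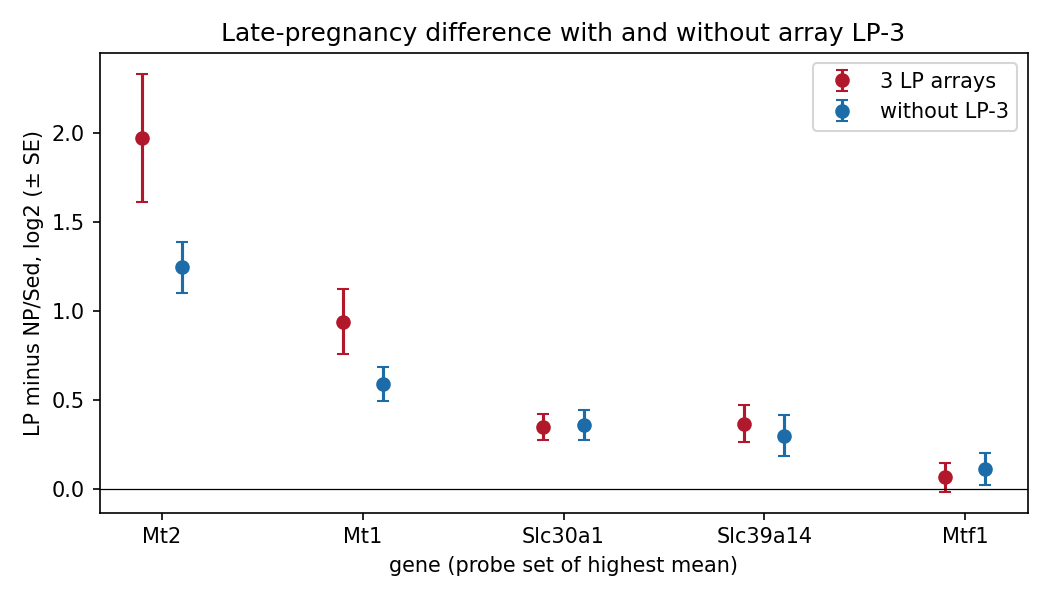
Difference LP minus NP/Sed in log2 units (vertical axis, ± SE) for the 5 genes (horizontal axis) with all 3 LP arrays and without LP-3. Leaving out LP-3 takes Mt2 from 1.97 to 1.25 and Mt1 from 0.94 to 0.59, and moves Slc30a1 from 0.35 to 0.36.

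On the brighter Mt1 probe set (1422557_s_at), whose signal may not come from Mt1 alone, Mt1 and Mt2 moved together from array to array. Over the 18 arrays Pearson's r between them was 0.984, and without LP-3 it was 0.960 over 17 arrays. Deviations from the group means had an r of 0.979 with LP-3 and 0.815 without it, so that within groups, too, the array with more Mt2 tended to be the one with more Mt1. The slope of Mt1 on Mt2 was 0.51 log2 units per unit, with LP-3 or without it. Both values of a point come from the same hybridization, so these are descriptions of the arrays and carry no p. No r was taken for the dimmer Mt1 probe set, so the likeness above holds for the brighter probe set only. At MP and LP the dimmer probe set and Mt2 both lay above all NP/Sed arrays. At 0PP the dimmer probe set read 5.57, 5.30 and 5.62, within the NP/Sed range, whereas Mt2 stayed above that range. On LP-3 and MP-3 the dimmer probe set read 6.28 and 6.29, where Mt2 read 12.84 and 10.17.

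**Figure D3:**
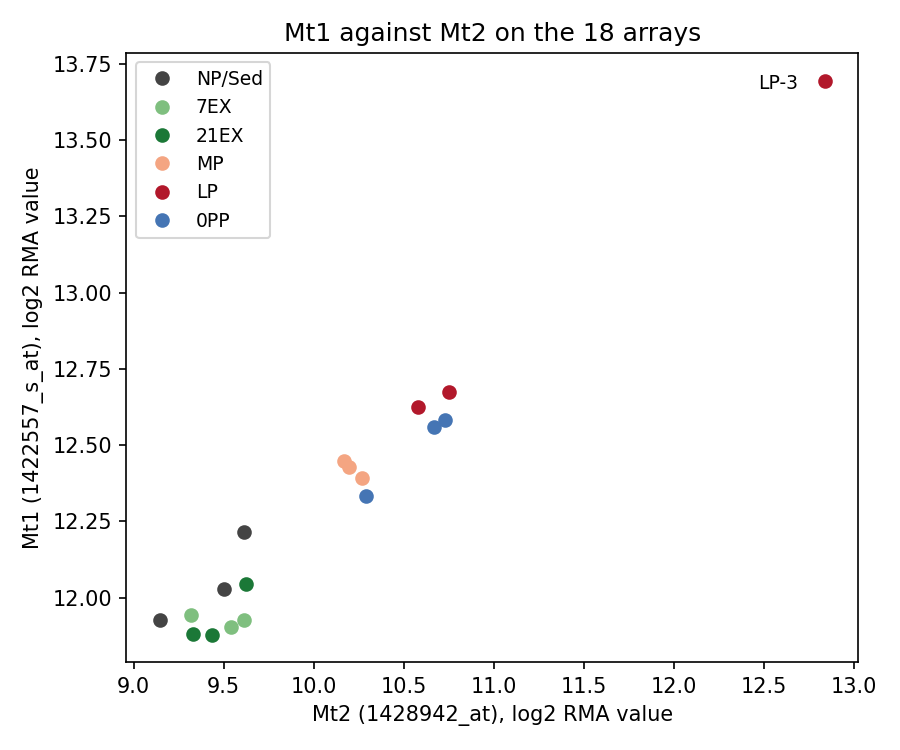
Log2 RMA value of the brighter Mt1 probe set (vertical axis) against Mt2 (horizontal axis), 1 point for each of the 18 arrays, coloured by group. Sedentary and exercise arrays sit at the lower left, with Mt2 at 9.62 or less, and LP-3, at 12.84 for Mt2 and 13.69 for Mt1, is the highest in both.

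LP-3 was also high in other genes. Mt2 ranked 10 and Mt1, by its brighter probe set, ranked 68 among 18193 genes by the excess of LP-3 over the other LP arrays. The genes with the largest excess, picked by that excess, included Lcn2 (3.73), an iron-siderophore binding acute phase protein, Igtp (3.62), Iigp1 (2.95) and Irgm1 (2.62), GTPases known to be induced by interferon, and Serpina3n (2.59), a secreted protease inhibitor. Of 17 interleukin-6 and acute phase genes measured, 6 lay at least 1 log2 unit higher on LP-3, with a median of 0.66, whereas 2 of 20 glucocorticoid response genes did, with a median of 0.09. Lcn2 and Cebpd stand in both lists, and Lcn2 is counted in both. None of the 22 other Slc30 and Slc39 transporter genes did, and their median was -0.04. Among cell type lists, 2 of 6 neutrophil markers were higher by 1 or more (S100a9 by 1.87), none of 7 macrophage markers was (median 0.29), and the 4 smooth muscle markers had a median of 0.72. Whether any of these bear on the metallothioneins of LP-3 was not tested.

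The zinc exporter Slc30a1 moved far less than the metallothioneins, and LP-3 was not its high array. Its brighter probe set (1436164_at) read 8.49, 8.57 and 8.48 in NP/Sed, 8.58, 8.62 and 8.66 at 7EX and 8.74, 8.60 and 8.64 at 21EX. It read 8.69, 8.85 and 8.61 at MP, 8.91, 8.83 and 8.84 at LP and 8.82, 8.90 and 8.80 at 0PP. The NP/Sed arrays were the lowest 3 of all 18, with no overlap with any other group. The differences from NP/Sed were 0.11, 0.15 and 0.21 log2 units at 7EX, 21EX and MP and 0.35 and 0.33 at LP and 0PP, each ± 0.07. The largest, at LP, is 1.27-fold. Neighbouring groups above NP/Sed in the order 7EX, 21EX, MP, 0PP and LP all overlapped. The dimmer probe set (1422786_at, 6.05 to 6.52) overlapped with NP/Sed at LP (0.14 ± 0.09) and 0PP (0.01 ± 0.09), and only at MP did its arrays lie above NP/Sed (0.20 ± 0.09).

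The importer Slc39a14 had its highest group mean at 0PP. Its brightest probe set (1427035_at) read 8.42, 7.99 and 8.02 in NP/Sed, 8.24, 8.24 and 8.37 at 7EX and 8.19, 8.24 and 8.31 at 21EX. It read 8.41, 8.50 and 8.61 at MP, 8.54, 8.35 and 8.64 at LP and 8.67, 8.71 and 8.59 at 0PP. Only the 0PP arrays lay above all NP/Sed arrays, by 0.51 ± 0.10 log2 units or 1.43-fold, and NP/Sed-1, at 8.42, overlapped with both MP and LP. The differences at MP and LP were 0.36 and 0.37, both ± 0.10, and without NP/Sed-1 they were 0.50 ± 0.09 each. At 7EX and 21EX they were 0.14 and 0.10, both ± 0.10, and without NP/Sed-1 they were 0.27 and 0.24, both ± 0.09. Leaving out that control array thus raised the exercise groups as well. The 0PP arrays overlapped with those of MP and of LP, and 0PP minus LP was 0.14 ± 0.10. The other 3 probe sets (1425649_at, 1438490_at and 1457770_at) were dim, at 3.82 to 5.86, and differed from NP/Sed by -0.22 to 0.15 over the 5 comparisons, with arrays clear of NP/Sed only for 1457770_at at 21EX, which was lower there.

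Mtf1 itself varied little. Its brightest probe set (1418333_at) stayed between 7.76 and 8.16 log2 units over the 18 arrays. The highest group was 21EX, at 8.02, 8.03 and 8.16 against 7.76, 7.94 and 7.84 in NP/Sed, a difference of 0.22 ± 0.08. MP was 0.13 ± 0.08 above NP/Sed without overlap, and LP and 0PP overlapped with NP/Sed at 0.07 and 0.04, each ± 0.08. Of its other 4 probe sets, 1440414_at (4.35 to 5.46) lay below NP/Sed at 7EX, 21EX and 0PP, by -0.43, -0.46 and -0.40, each ± 0.21, and 1429170_a_at lay above it at 0PP by 0.23 ± 0.11. The remaining 1428979_at and 1452990_at overlapped with NP/Sed in all 5 comparisons. A change in the activity of the protein would not be seen in these values.

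**Figure D4:**
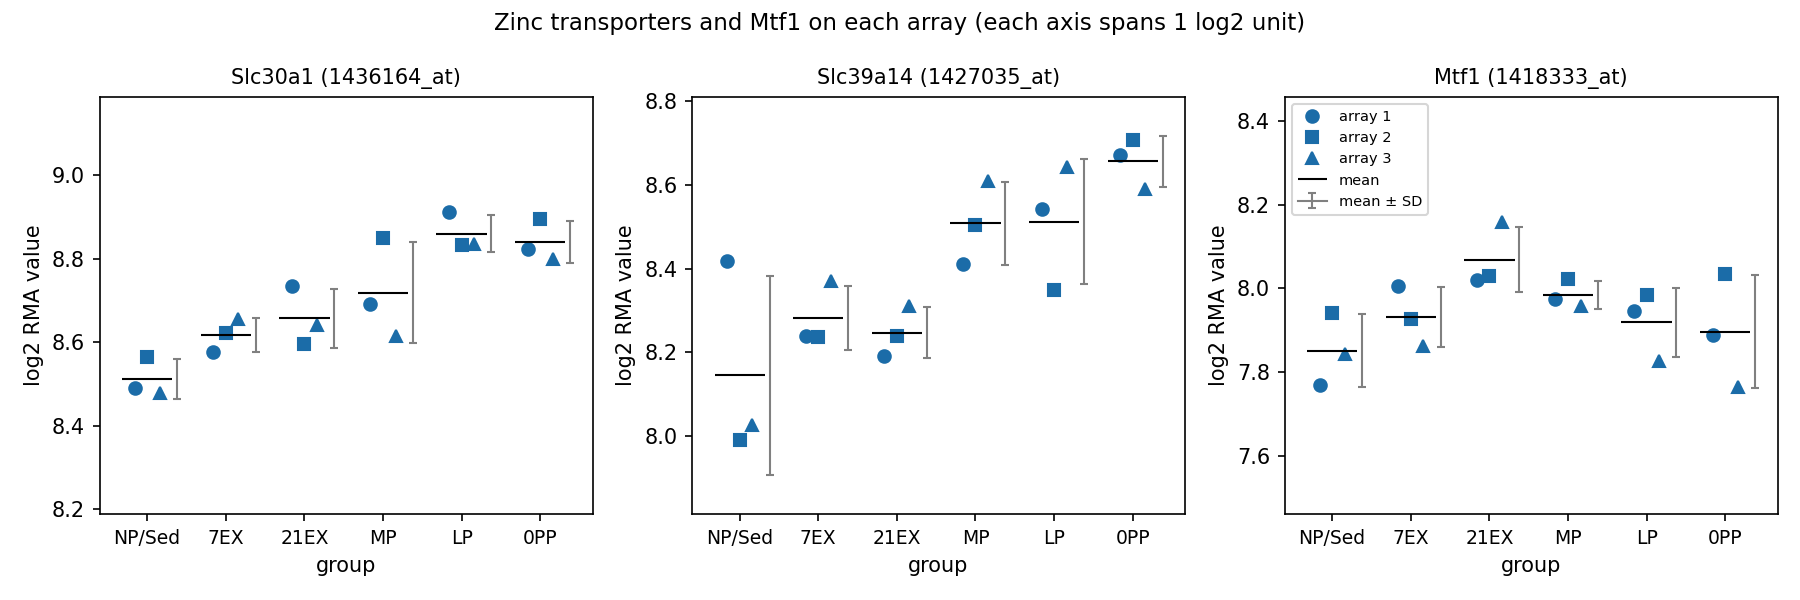
Log2 RMA value (vertical axes, each spanning 1 log2 unit) of the brightest probe set of Slc30a1, Slc39a14 and Mtf1 on each of 3 arrays in the 6 groups, with the group mean and SD. Slc30a1 is lowest in NP/Sed (8.48 to 8.57), Slc39a14 has its highest mean at 0PP (8.59 to 8.71), and Mtf1 stays between 7.76 and 8.16.

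Counted by brightest probe set, members whose 3 arrays all lay above all NP/Sed arrays numbered 1 of 5 at 7EX (Slc30a1), 2 at 21EX (Mtf1 and Slc30a1), 4 at MP (all but Slc39a14), 3 at LP (Mt1, Mt2 and Slc30a1) and 4 at 0PP (all but Mtf1). Over all genes that share was 12.8% at 7EX, 18.7% at 21EX, 12.6% at MP, 11% at LP and 15.2% at 0PP. From LP to 0PP 1 member (Mt1) had all arrays lower, and 8.06% of all genes did. By limma with Benjamini-Hochberg adjustment over all 45037 probe sets, genes with a probe set past an adjusted p of 0.05 made up 1.26% at 7EX, 5.16% at 21EX, 2.11% at MP, 2.97% at LP, 3.86% at 0PP and 1.64% from LP to 0PP. The members past it numbered 0, 0, 1 (Mt1), 3 (Mt1, Mt2 and Slc30a1), 2 (Slc30a1 and Slc39a14) and 1 (Mt1) in the same order. Any probe set of a gene counted here. For Mt1 the dimmer probe set alone passed at MP and from LP to 0PP, and both did at LP. As these values chose the members, the counts are descriptions. In whole ventricle, fewer cells of a type and less RNA per cell cannot be told apart.

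The rest of the 2 zinc transporter families, taken whole apart from Slc30a1 and Slc39a14, gave 1 called gene. Like all gene lists here, this list was set with earlier results of these data known. All 22 other Slc30 and Slc39 genes were measured. By the same limma test and adjustment 0 passed at 7EX, 21EX and MP, 1 was higher at LP and at 0PP, and 0 passed from LP to 0PP. At an unadjusted p under 0.05 the counts, in either direction, were 1, 4, 1, 4, 6 and 2, and a Cyber-T style test called 0, 1, 1, 1, 1 and 0. The median difference over the 22 genes was 0.01 at LP and 0.06 at 0PP, against 0.01 at each for all genes.

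The called gene was Slc39a6, a plasma membrane zinc importer first known as an oestrogen-responsive gene. Its probe set (1424674_at) read 5.65, 5.87 and 5.80 in NP/Sed, 6.26, 6.07 and 6.65 at LP and 6.67, 6.60 and 6.50 at 0PP. All 3 arrays of LP and of 0PP lay above NP/Sed. It rose by 0.55 ± 0.13 log2 units at LP (limma adjusted p = 0.035, higher on 3 of 3 arrays) and by 0.82 ± 0.13 at 0PP (limma adjusted p = 0.0059). Without LP-3 the LP difference was 0.39 ± 0.12 and no longer passed, and leaving out LP-1 or any 1 NP/Sed array also ended that call, whereas the 0PP call held when any 1 array was left out. At 7EX, 21EX and MP it differed by 0.36, 0.42 and 0.48, with limma adjusted p of 0.21, 0.078 and 0.079. Its other 3 probe sets differed from NP/Sed by -0.12 to 0.06 at LP and by -0.21 to 0.16 at 0PP, none past the threshold.

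**Figure D5:**
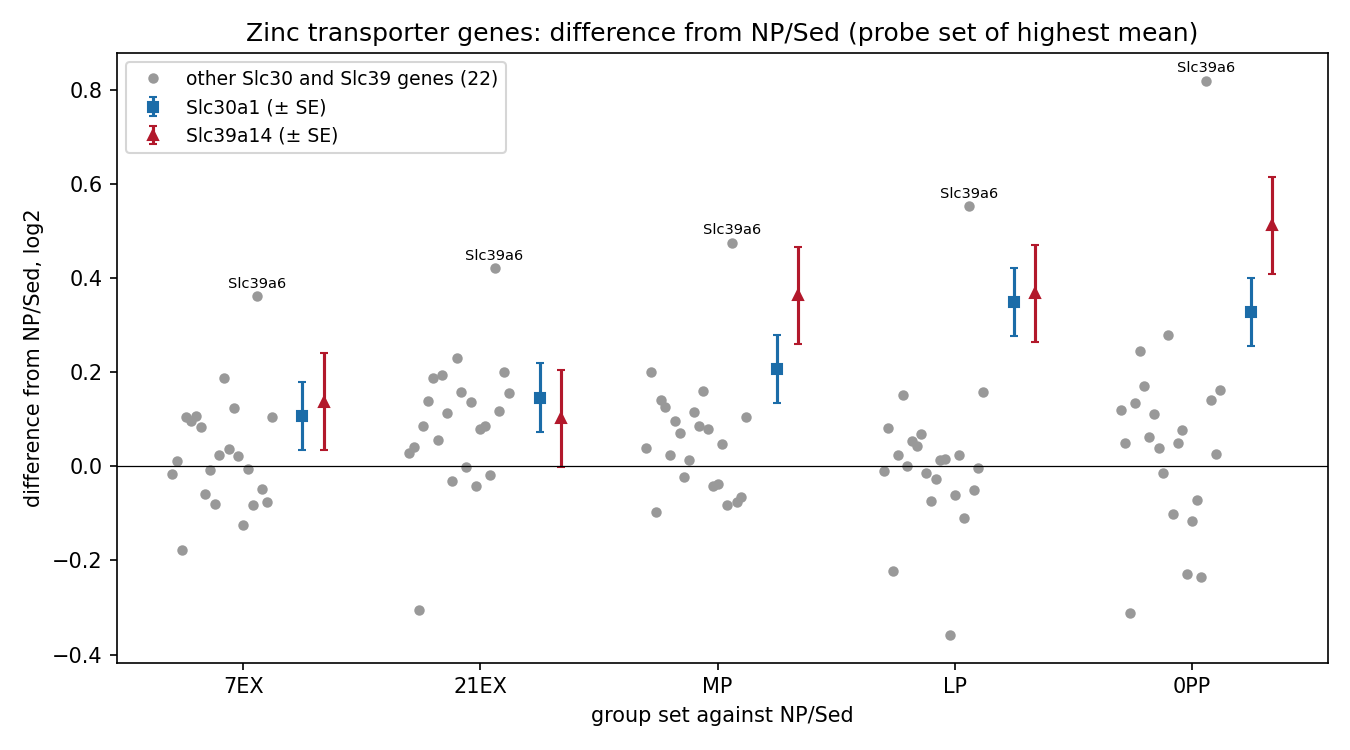
Difference from NP/Sed in log2 units (vertical axis) of the 22 other Slc30 and Slc39 genes (grey) and of Slc30a1 and Slc39a14 (± SE) for each group (horizontal axis), by the probe set of highest mean. Slc39a6 is the highest grey point in each group, at 0.55 at LP and 0.82 at 0PP.

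The other metallothioneins, Mt3, known from brain, and Mt4, known from stratified epithelium, stayed dim. Their probe sets averaged 4.94 and 3.71 log2 units over the arrays, and their differences from NP/Sed ran from -0.11 to 0.18. Neither passed the limma threshold in any comparison, also at an unadjusted p under 0.05 and by the Cyber-T style test. Of 6 other genes known as targets of the Mtf1 protein, 0 passed against NP/Sed in any group, with 0 to 2 at an unadjusted p under 0.05 and 0 to 2 by the Cyber-T style test. From LP to 0PP the iron exporter Slc40a1 fell by 0.50 ± 0.11 (limma adjusted p = 0.042), lower at 0PP. With any 1 array left out the difference ran from -0.60 to -0.35 (-0.44 ± 0.13 without LP-3), and the call was lost in 13 of 18 such fits.

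Because the metallothionein genes are known to answer glucocorticoids, 20 glucocorticoid response genes were counted by the same limma test. At MP 6 rose and at LP 8 rose, with none lower, and at 0PP 1 rose, with medians of 0.70, 0.71 and 0.13 log2 units. At 7EX and 21EX 1 gene fell (Klf9, a transcription factor, by 0.41 ± 0.08 and 0.36 ± 0.08), with medians of -0.21 and -0.04. The Klf9 calls were lost in 4 and 3 of 18 fits with 1 array left out. The median of all genes was 0.01 to 0.04 in these comparisons. Fkbp5, a co-chaperone of steroid receptors including that for glucocorticoids, was higher by 1.34 ± 0.22 at MP (limma adjusted p = 0.0078) and by 1.54 ± 0.22 at LP (limma adjusted p = 0.0016). At 0PP it was higher by 0.95 ± 0.22 (limma adjusted p = 0.035). With 1 array left out these calls were lost in 1, 0 and 4 of 18 fits. The paper also describes Fkbp5 as a strongly raised target of progesterone signaling. Which hormone bears on its level here was not tested. Fkbp5 read 8.09, 8.05 and 8.63 on the LP arrays, so the other LP arrays carried its difference too. Without LP-3 the list's counts past the threshold were 8 at MP, 4 at LP and 2 at 0PP. With any 1 array left out they ran from 0 (without MP-3) to 8 at MP, from 3 to 10 at LP and from 0 to 2 at 0PP. From LP to 0PP the list had a median of -0.50 and 1 gene fell, Pdk4, a kinase that holds back glucose oxidation, by 1.44 ± 0.30 (limma adjusted p = 0.026). Without LP-3 the difference was -1.25 ± 0.33, and the call was lost there and in 3 more of the 18 fits with 1 array left out.

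Interleukin-6 and acute phase genes were counted in the same way over 17 measured members. At LP 3 rose (Cebpd, Cp and Osmr), at 0PP 2 rose (Cp and Timp1), and 0 passed at 7EX, 21EX or MP. At an unadjusted p under 0.05 the last 3 counts were 2 (1 higher), 4 (1 higher) and 7 (6 higher). At LP that count was 13 (12 higher) and at 0PP 8 (7 higher). The Cyber-T style test called 3, 2 and 3 at 7EX, 21EX and MP. The medians were 0.43 at LP and 0.35 at 0PP. Osmr, a receptor subunit for oncostatin M, rose by 0.71 ± 0.17 at LP (limma adjusted p = 0.045). It read 8.01, 7.72 and 8.83 on the LP arrays, the difference was 0.39 ± 0.10 without LP-3, and the call was lost in 17 of the 18 fits with 1 array left out. Cp, the copper-carrying ferroxidase ceruloplasmin, rose by 0.80 ± 0.12 at LP (limma adjusted p = 0.0017) and by 0.79 ± 0.12 at 0PP (limma adjusted p = 0.0043). Cp kept both calls whichever array was left out. Without LP-3 the counts were 2 at LP (Cp and Lcn2, with Cebpd and Osmr lost) and 7 at 0PP, and the lowest count with any 1 array left out was 1 in both.

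Markers of other cell types moved with the groups as well, among them those of macrophages. The mean of the 7 markers lay at 7.65 to 7.94 log2 units on the NP/Sed arrays, above these and up to 8.23 on every exercise array, and at 8.02 to 8.34 on the pregnancy and postpartum arrays. By limma 2 of the 7 rose at 7EX, 2 at 21EX, 4 at MP, 1 at LP and 2 at 0PP, and with 1 array left out the MP count ran from 0 to 4. Erythroid markers were raised at MP, with 2 of 3 measured past the threshold, and their mean lay at 5.62 to 6.30 at MP and 5.34 to 5.46 at 0PP against 5.03 to 5.12 in NP/Sed. Alas2, an enzyme of heme synthesis in red cell precursors, was also higher at 0PP than in NP/Sed (0.60 ± 0.13, limma adjusted p = 0.028) and than at LP (0.95 ± 0.13, limma adjusted p = 0.0018). The mean of 6 adipocyte markers lay at 5.97 to 6.48 at MP against 5.54 to 5.77 in NP/Sed. There 1 of them rose, the adipokine gene Adipoq (2.46 ± 0.43, limma adjusted p = 0.010), and at LP 1 rose, the fatty acid binding protein gene Fabp4 (0.80 ± 0.15, limma adjusted p = 0.0094). That Fabp4 value is from 1424155_at, and the brightest Fabp4 probe set (1417023_a_at) differed by 0.25 at LP. Of 6 fibroblast markers, the collagen genes Col1a1 and Col3a1 fell at LP by 0.76 ± 0.14 and 1.02 ± 0.16 (limma adjusted p = 0.0069 and 0.0024) while 1 rose (Dcn), and from LP to 0PP 3 rose (Col1a1, Col3a1 and Tcf21) and 1 fell (Dcn). Dcn was called on a dim probe set (1441506_at), and its brightest (1449368_at) differed by 0.17 at LP and by -0.17 from LP to 0PP. The brightest Col1a1 and Col3a1 probe sets moved in the called direction, by -0.42 and -0.71 at LP. From LP to 0PP they differed by 0.56 and 0.75. The mean of the fibroblast markers lay at 9.67 to 9.79 at LP and at 9.81 to 10.01 in NP/Sed. The macrophage shift was present in every group set against NP/Sed, with the largest count at MP. Neutrophil markers averaged 4.73 to 5.03 in NP/Sed and 4.77 to 5.39 at LP, with 0 of 6 past the threshold. Of 8 cardiomyocyte markers, 0 passed as higher. A dimmer Tnnt2 probe set (1440424_at) passed as lower at 7EX, 21EX and 0PP, at -0.74, -0.86 and -0.80. A dimmer Myh6 probe set (1417729_at) passed as lower at MP, at -0.93. The brightest probe sets differed there by -0.01, -0.01 and -0.06 for Tnnt2 and by -0.02 for Myh6. The part of these cells in the values of the 5 genes was not tested.

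Among 1885 genes whose level varied by an SD of 0.2 or more over the 18 arrays, those most like Mt2 by Pearson's r were Osmr (0.934), Myc (0.922), Tmtc1 (0.902), Serpina3n (0.886), Il33 (0.884) and Slc7a2 (0.881). Without LP-3 these became 0.846, 0.784, 0.774, 0.691, 0.685 and 0.881 over 17 arrays, so that Slc7a2, a cationic amino acid transporter, was the least moved. Slc7a2 read 4.83, 4.91 and 4.68 in NP/Sed, 5.19, 5.09 and 4.96 at MP, 5.21, 5.17 and 5.49 at LP and 4.84, 5.40 and 5.13 at 0PP. By deviations from the group means the most like were Lcn2 (0.956), Plin2 (0.945), Timp1 (0.944), Ctps (0.929), Bcr (0.925) and Myd88 (0.919), and without LP-3 their r lay between 0.181 and 0.512. Of the members, Slc39a14 had an r of 0.708 with Mt2, Slc30a1 0.693 and Mtf1 -0.229, and without LP-3 these were 0.810, 0.842 and -0.012. Mt1, on its brighter probe set, stood above all of them at 0.984. By deviations from the group means r with Mt2 was 0.463 for Slc39a14, -0.042 for Slc30a1 and -0.301 for Mtf1. Without LP-3 these were 0.423, 0.271 and 0.192, so the likeness of Slc30a1 lay mostly in the group means. Slc30a1 and Mtf1, with SDs of 0.138 and 0.102, were under the SD limit set for the other genes. The points share arrays and groups, and the likeness is a description.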

How the data were processed

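Left ventricular RNA was hybridized to Affymetrix mouse expression arrays, and the authors summarised the probes of each probe set by robust multi-array average (RMA) in R 2.12.2. The deposited values are log2 RMA values, normalized across arrays by the authors, and were used as given. The number of arrays, not a read depth, limits the precision. RMA can compress differences, so folds are those of the log2 scale. Genes were named from GEO's platform annotation: of 45101 probe sets, 64 controls were left out, and of the 45037 tested, 34945 carried 1 gene symbol, 932 several and 9160 none. Only probe sets with 1 symbol were named.

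A single model of 6 group means was fitted to all probe sets with limma 3.58.1 in R 4.3.3 (lmFit, contrasts.fit, eBayes), two-sided, with Benjamini-Hochberg adjustment within a comparison. A gene passed where 1 of its probe sets had an adjusted p under 0.05. Members were taken with every probe set, and their summary by the probe set of highest mean. Listed genes are shown by their probe set of smallest p in limma's moderated F-test, and at most 4 genes a list and comparison were eligible to be named, by smallest p. The members and lists were chosen with earlier results of these data known. The Cyber-T style test, the study's kind of test, was run as an alternative. It used Benjamini-Hochberg adjustment in place of the study's posterior probability. Both tests were tried on simulated data with known differences. Of 44837 probe sets simulated without a difference, limma called 9 and the Cyber-T style test 77. Of 50 simulated with a difference of 0.5 log2 units they called 34 and 32. The Cyber-T style counts are thus the less strict.

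Deviations of same-numbered arrays in 0PP and NP/Sed had correlations of 0.127, 0.117 and 0.179, and in none of the other comparisons did every pair exceed 0.1. Correlations of like size but negative sign occurred elsewhere, at -0.179 and -0.184 for 7EX with NP/Sed and -0.172 for 0PP with LP. These values therefore do not establish a pairing, and the labels give no shared batch. A replicate block was run as an alternative.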

Additional observations from a re-analysis of the deposited data

How the results depend on the processing

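Of the alternatives, 650 member differences stayed within the spread between arrays and 12 moved. For Mt2 at LP minus NP/Sed (1.97), leaving out 1 array gave 1.25 to 2.38 and the median of the arrays, chosen after seeing the data, gave 1.25. For Mt1 (0.94) these were 0.59 to 1.13 and 0.65. For 0PP minus LP, leaving out 1 array gave -1.23 to -0.10 for Mt2 and -0.69 to -0.16 for Mt1, the smallest size without LP-3. With the replicate block the Mt2 difference at LP kept its value of 1.97, with an SE of 0.35, and the block changed no call of the Slc30 and Slc39 genes.

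The count of Slc30 and Slc39 genes past the threshold moved by 1 gene. At LP it was 0 when only the groups compared were fitted or a 75% change was required, and 0 to 1 with 1 array left out (0 without NP/Sed-1, NP/Sed-3, LP-1 or LP-3). At 0PP it was 2 after median centring and 1 to 2 with 1 array left out. At 21EX it was 1 by the Cyber-T style test and 0 to 1 with 1 array left out. At MP it was 1 after repeated quantile normalization and by the Cyber-T style test, and 0 to 1 with 1 array left out. From LP to 0PP it was 1 after repeated quantile normalization, with an intensity trend and with a mean log2 value of at least 5, and 0 to 1 with 1 array left out. The causes were not tested. Counts of all lists moved by over 1.5 times in 235 of the recomputed values and did not in 1277. Precision is limited by the 3 pooled arrays of each group.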

Other observations

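Copper, which metallothioneins also bind, was followed through 10 genes of copper handling. Atp7a, the copper-exporting ATPase, rose by limma with adjusted p at 21EX (0.35 ± 0.09 log2 units, adjusted p = 0.046), MP (0.39 ± 0.09, adjusted p = 0.042) and 0PP (0.40 ± 0.09, adjusted p = 0.033). Its probe set read 6.52, 6.58 and 6.40 in NP/Sed and 6.92, 6.86 and 6.92 at 0PP, without overlap. The copper importer Slc31a1 rose at 0PP by 0.39 ± 0.09 (limma adjusted p = 0.040), so that 3 of the 10 genes, with Cp, passed there. With 1 array left out Atp7a differed by 0.30 to 0.39 at 21EX, 0.29 to 0.48 at MP and 0.35 to 0.44 at 0PP, and kept its call in 4, 6 and 13 of 18 such fits. With the replicate block 1 of the 10 passed at 0PP, and with any 1 array left out 1 to 3 did. A dim probe set of Sod1 (1440222_at) was lower at 21EX by -0.43 ± 0.11 (limma adjusted p = 0.042), and from LP to 0PP by -0.57 ± 0.11 (limma adjusted p = 0.018). The brightest Sod1 probe set (1451124_at) differed by 0.02 ± 0.07 and -0.06 ± 0.07 there.

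Of 10 measured genes known as targets of the Nrf2 protein, which drives antioxidant genes, 1 rose at LP. This was Gclm, a subunit of the enzyme that starts glutathione synthesis, higher by 0.56 ± 0.13 (limma adjusted p = 0.038), and the difference ran from 0.46 to 0.65 with 1 array left out (0.46 ± 0.14 without LP-3), with the call lost in 5 of 18 such fits. With 1 array left out 0 to 2 of the 10 passed there. Hmox1, the heme-degrading enzyme, was 1.40 log2 units higher on LP-3 than on the other LP arrays. A dim probe set of Txnrd1 (1424486_a_at) fell by 0.65 ± 0.14 at 21EX (limma adjusted p = 0.021) and by 0.66 ± 0.14 at 0PP (limma adjusted p = 0.021), whereas the brightest (1421529_a_at) differed the other way, by 0.26 ± 0.13 and 0.25 ± 0.13 (limma adjusted p = 0.31 and 0.34).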
